A study of Mus musculus with 27 samples.

Results

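Host genes that restrict retroviruses were followed in *Setdb1* cKO iMEFs, a recloned, immortalized line of mouse embryonic fibroblasts. Adding 4-hydroxytamoxifen (4OHT) to these cells deletes *Setdb1*, which encodes an H3K9 methyltransferase. The 10 genes, chosen by name, are *Apobec3*, *Samhd1*, *Mov10*, *Zc3hav1*, *Trim21*, *Trim25*, *Bst2*, *Ifitm1*, *Ifitm2* and *Ifitm3*, out of 23007 genes with a value. All 10 had an FPKM value (fragments per kilobase of transcript, scaled to the mapped fragments of the library) in each of the 27 libraries, and all 10 passed the filter on low values in each of the 3 experiments. A value came from the row named after the gene in the siRNA and inhibitor experiments, and from the row covering the gene's position in the total RNA experiment, whose rows carry no gene names.

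The total RNA experiment held 3 groups of 3 libraries, namely untreated cells, cells given 4OHT for 4 days and harvested at day 5 (4OHT day 5), and cells kept for more than 2 weeks after 4OHT by the sample labels (long-term KO), for which the methods text gives a shorter minimum. The siRNA experiment held 4 groups of 2 libraries, harvested at day 6 after transfection with control siRNA (siCtrl) or *Dnmt1* siRNA (siDnmt1), each without or with 4OHT from day 0 (4OHT + siCtrl, 4OHT + siDnmt1). The inhibitor experiment held 5 groups of 2 libraries. These were untreated cells (Ctrl), cells given the histone deacetylase inhibitor TSA at 150 nM for 24 h, cells given the MEK inhibitor PD0325901 (spelled both PD0325901 and PD0325091 in the sample labels) at 1 µM for the last 24 h, cells at day 6 after 4OHT (4OHT day 6), and cells given both 4OHT and PD0325901. Every library came from the same immortalized line, all cells carry the conditional allele, and nothing in the labels says that replicates were separate cultures, so p-values measure the spread between libraries, which may be technical. No group is labelled as given vehicle, and no group given 4OHT lacks the conditional allele. Effects of 4OHT itself and of the loss of Setdb1 therefore cannot be told apart. Levels were compared within an experiment, because rRNA removal is named for the total RNA experiment only and read types differed.

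Restriction factors are host proteins that block steps of the retroviral life cycle, and many of their genes are switched on by type I interferon (IFN) through the interferon-stimulated response element in their promoters. Apobec3 is a cytidine deaminase that edits retroviral cDNA, and Samhd1 is a dNTP hydrolase that limits reverse transcription. Mov10 is an RNA helicase that restrains retroelements, and Zc3hav1 (ZAP) binds CpG-rich viral RNA and promotes its decay. Trim21 is a ubiquitin ligase that acts as an intracellular antibody receptor, and Trim25 is a ubiquitin ligase that serves as a cofactor of ZAP and activates the RNA sensor RIG-I. Bst2 (tetherin) holds budding virions on the cell surface, and the Ifitm proteins are membrane proteins that hinder virus entry.

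Single libraries and the targeted genes set limits on what follows. The second 4OHT + siCtrl library stood apart: *Irf7*, an IFN-induced transcription factor gene, was at 14.6 FPKM in it against 279 FPKM in the first, and 21.2 and 21.5 FPKM in the siCtrl libraries. The Pearson correlation of log2 values between both 4OHT + siCtrl libraries was 0.899, against 0.923 to 0.968 in the other pairs of that experiment. Whether its cells responded to 4OHT, or whether it carries the right label, was not tested, and results of that experiment are given with and without it. The *Setdb1* gene value did not separate 4OHT from control libraries in the total RNA experiment (4.16 to 6.52 FPKM at day 5, 5.16 to 5.95 FPKM untreated) or in the siRNA experiment (5.00 to 7.58 FPKM with 4OHT, 5.54 to 7.40 FPKM without). A value for the whole gene cannot show that an exon is missing. In the inhibitor experiment *Setdb1* was listed at 0, which can be a failed estimate, in 3 of the 4 libraries given 4OHT and was at 5.30 FPKM in the other, against 5.34 to 10.1 FPKM in the 6 libraries without 4OHT. *Dnmt1* was at 10.6 to 12.2 FPKM in the siDnmt1 libraries and at 73.4 to 80.5 FPKM in the others of that experiment. For the second PD0325901 library, a title line inside its file names the combined treatment and the description line names PD0325901, and the sample label was followed. The deposited intervals and the lengths of genes with 1 exon implied 37.1 to 42.6 M fragments per library in the total RNA experiment, 13.7 to 15.7 M fragments in the siRNA experiment and 10.9 to 12.8 M fragments in the inhibitor experiment. Of the fibroblast markers, *Col1a2* was at 205 FPKM or more and *Vim* at 468 FPKM or more in every library. Others were low in some libraries, with *Pdgfra* down to 0.871 FPKM, *Dcn* to 1.10 FPKM and *Pdgfrb* to 1.82 FPKM. *Lum* reached at most 1.64 FPKM and was listed at 0 in 6 libraries. The leukocyte marker *Ptprc* reached at most 0.131 FPKM, and *Adgre1* and *Cd3e* were listed at 0 in all 27 libraries. The leukocyte markers above 1 FPKM were *Cd14* at 0.703 to 2.87 FPKM, *Cd79a* at up to 1.22 FPKM, and *Cd68*, which reached 66.9 FPKM where it had a row of its own and 775 FPKM where its row is shared with another gene, as in most total RNA libraries.

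In mm9, *Apobec3* lies on chromosome 15 from 79722838 to 79738859, *Bst2* on chromosome 8 from 74058161 to 74061336, *Samhd1* on chromosome 2 from 156923265 to 156960958, *Mov10* on chromosome 3 from 104597750 to 104621481, *Zc3hav1* on chromosome 6 from 38256337 to 38304603 and *Trim25* on chromosome 11 from 88860717 to 88881607. The other 4 lie on chromosome 7. *Trim21* spans 109706434 to 109713996, and the 3 *Ifitm* genes sit side by side, *Ifitm2* from 148140738 to 148141860, *Ifitm1* from 148153328 to 148155726 and *Ifitm3* from 148195489 to 148196643. The values are for whole genes, exons of all isoforms together.

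Promoters were searched on both strands for the core of the interferon-stimulated response element, taken as GAAA, any 2 bases and GAAA again, which reads TTTC, any 2 bases and TTTC on the other strand. The sequences are those of RefSeq (GRCm38.p6), 250 bases before to 50 bases after each gene start, and each of the 12 promoters of the 10 genes was placed in mm9 by an exact match. Of all 32851 promoters in that set, 3.44% held a match, as did 5 of the 12 promoters of the restriction genes. These 5 promoters belong to 5 of the 10 genes. The stretches with a match are shown so that they can be compared between genes that rose and genes that fell. A match is a description and not a binding site. Each is 30 bases, 5′ to 3′ on the gene's strand, with the matched letters in capitals, overlapping matches run together.
Bst2, chr8:74061479-74061508, minus strand, match 130 to 115 bases before the start: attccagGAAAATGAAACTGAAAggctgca
Trim21, chr7:109713961-109713990, minus strand, match at bases 14 to 29 after the start: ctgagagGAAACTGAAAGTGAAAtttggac
Ifitm3, chr7:148196613-148196642, minus strand, matches between bases 3 and 29 after the start: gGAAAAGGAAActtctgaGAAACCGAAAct
Ifitm2, chr7:148141887-148141916, minus strand, match 46 to 37 bases before the start: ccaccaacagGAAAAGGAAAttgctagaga
Apobec3, chr15:79722688-79722717, plus strand, match on the other strand 140 to 131 bases before the start: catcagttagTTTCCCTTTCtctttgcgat

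*Bst2* and *Trim21* each held a pair of overlapping matches, and *Ifitm3* held a pair that did not overlap. *Ifitm1*, *Trim25*, *Zc3hav1*, *Samhd1* and *Mov10* held none in this window, which says only that these letters were not found there. The RefSeq start of *Ifitm1* lies 647 bases inside the span given above, and the same window around the start of that span (chr7:148153078-148153377) held no match either. Holding a match and direction did not go together in every gene: with 4OHT + siDnmt1 against siCtrl, *Ifitm2* held one and was called lower, and *Trim25* and *Zc3hav1* held none and were called higher.

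Before any treatment the 10 genes spanned a wide range of levels, and FPKM allows them to be ordered because it is a value per length. In untreated cells of the total RNA experiment, *Ifitm2* was highest at 146 ± 8.25 FPKM (SD, n = 3), followed by *Ifitm3* at 79.1 ± 3.83 and *Bst2* at 43.6 ± 1.97. *Samhd1* (19.9 ± 2.61), *Zc3hav1* (17.4 ± 0.198), *Apobec3* (13.2 ± 1.59) and *Mov10* (10.6 ± 0.952) formed a middle group, in which *Samhd1* and *Zc3hav1* differed by no more than their spread. *Trim25* stood at 5.10 ± 0.283 FPKM, and *Trim21* (0.825 ± 0.0908) and *Ifitm1* (0.528 ± 0.0760) were lowest. *Ifitm2*, *Ifitm3* and *Bst2* were also the first 3 and *Trim21* and *Ifitm1* the last 2 in the siCtrl and Ctrl cells, although *Ifitm3* was above *Ifitm2* in siCtrl.

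**Figure D1:**
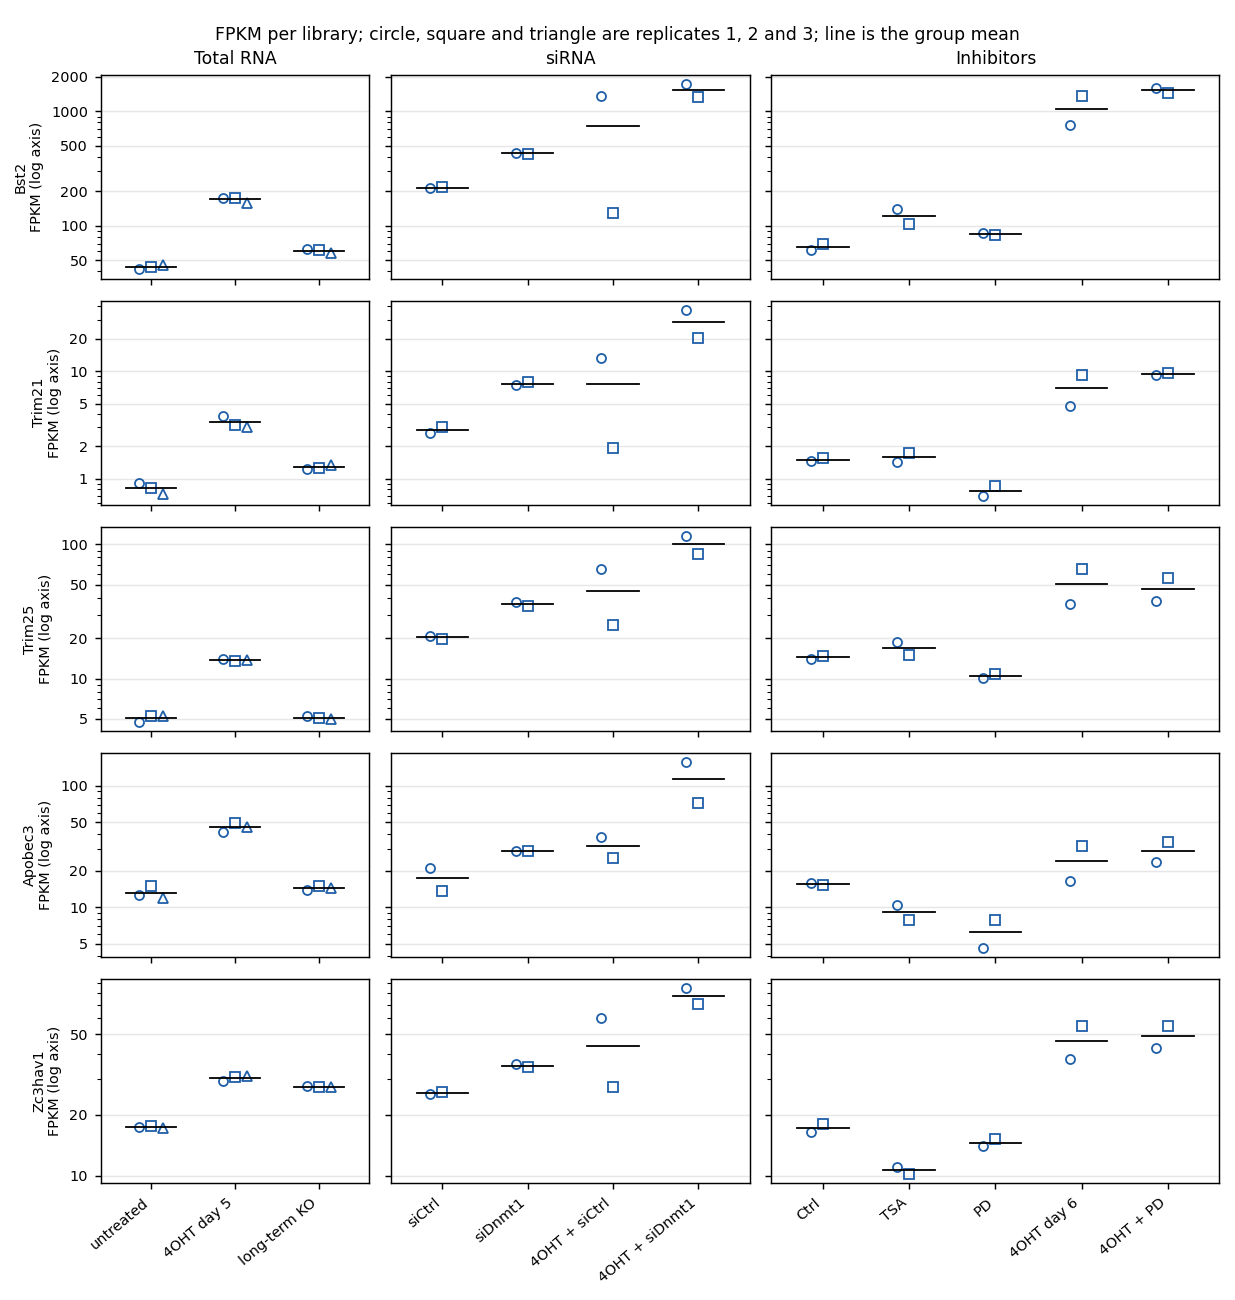
FPKM (vertical, log axis) of Bst2, Trim21, Trim25, Apobec3 and Zc3hav1 in each library, by group (horizontal) in the total RNA, siRNA and inhibitor experiments; open symbols are replicates and lines are group means. All 5 genes are higher at 4OHT day 5 than untreated in every library, and the second 4OHT + siCtrl library sits under the first for each gene.

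The first comparison set cells at 4OHT day 5 against untreated cells. *Apobec3*, *Bst2*, *Ifitm1*, *Ifitm3*, *Trim21* and *Trim25* rose at least 2-fold, *Zc3hav1* and *Samhd1* rose by less, and *Mov10* and *Ifitm2* did not pass the test. *Bst2* was at 41.6, 43.5 and 45.5 FPKM in the untreated libraries and at 175, 176 and 159 FPKM at 4OHT day 5. *Apobec3* went from 12.6, 15.0 and 12.04 FPKM to 42.0, 49.1 and 46.2 FPKM, and *Trim25* from 4.78, 5.30 and 5.23 FPKM to 14.0, 13.6 and 13.7 FPKM. The groups did not overlap for any of these genes, and the gap was several times the spread within a group.

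*Trim21*, the lowest of the ligases, went from 0.912, 0.831 and 0.731 FPKM to 3.86, 3.17 and 3.06 FPKM. *Ifitm3* went from 74.7, 81.7 and 80.9 FPKM to 181, 190.1 and 196 FPKM. *Ifitm1* rose from 0.516, 0.609 and 0.458 FPKM to 1.14, 1.23 and 1.36 FPKM, values that rest on an implied 8.22 to 24.4 fragments per library. All 3 genes were separated between the groups, *Ifitm1* at a level where few fragments were counted.

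The fold changes, on the log2(FPKM + 0.1) scale, came from limma fitted to all 10661 genes tested, with Benjamini-Hochberg adjustment. *Bst2* rose by 1.96 (standard error 0.06, adjusted p = 5.09e-07), *Trim21* by 1.90 (0.11, adjusted p = 2.45e-05) and *Apobec3* by 1.79 (0.09, adjusted p = 1.33e-05). *Trim25* rose by 1.42 (0.05, adjusted p = 1.16e-06), *Ifitm3* by 1.26 (0.06, adjusted p = 7.65e-06) and *Ifitm1* by 1.10 (0.11, adjusted p = 0.000289). A gene was called where the adjusted p was under 0.05 and the change at least 2-fold. By this rule 6 of the 10 genes were called higher and 0 lower, where 2.19% of all genes tested were called higher and 1.26% lower. The median of the 10 was 1.18 on the log2 scale, against 0.00 over all genes tested. *Trim21* and *Ifitm1* were under 1 FPKM in every untreated library and passed the filter only through 4OHT day 5 and long-term KO. A lower call against untreated was hardly possible for them, so their higher calls count for less. In bulk RNA of this kind a change in the number of cells that express a gene and a change in RNA per cell cannot be told apart. Beside these values, *Epcam*, *Cdh1*, *Krt8* and *Krt18* summed to 4.19 to 5.27 FPKM at day 5 and 1.22 to 1.56 FPKM untreated, and the 9 of 11 fibroblast markers with a value to 1711 to 1784 FPKM and 1997 to 2041 FPKM, and their part was not tested.

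Of the remaining 4, *Zc3hav1* was at 17.4, 17.5 and 17.2 FPKM untreated and at 29.4, 30.8 and 31.3 FPKM at day 5, a log2 fold change of 0.81 with an adjusted p of 2.37e-06 in limma. *Samhd1* was at 22.9, 18.6 and 18.2 FPKM and then at 34.6, 25.8 and 24.4 FPKM, 0.49 higher on the log2 scale (adjusted p = 0.0372). *Mov10* was at 9.72 to 11.6 FPKM untreated and 13.3 to 14.8 FPKM at day 5, and *Ifitm2* at 137 to 154 FPKM and 130.3 to 139 FPKM. Every day 5 library was above every untreated library for 9 of the 10 genes, all but *Ifitm2*, as it was for 24.2% of all genes tested, and none of the 10 was below them all, as were 23.2%. The *Mov10* test is weighed down by 1 long-term KO library, whose row also covers the neighbouring gene *Capza1*. With rows shared between genes set to missing, a step added after the data were seen, its log2 fold change of 0.41 at day 5 had an adjusted p of 0.00565.

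In the long-term KO cells *Bst2*, *Apobec3*, *Trim25* and *Trim21* were closer to the untreated level than to day 5, and *Ifitm3* lay between both. *Bst2* was at 62.8, 61.2 and 58.4 FPKM, *Apobec3* at 13.9, 14.9 and 14.3 FPKM, and *Trim25* at 5.25, 5.10 and 4.98 FPKM. *Trim21* was at 1.24, 1.27 and 1.35 FPKM and *Ifitm3* at 135, 125 and 119.7 FPKM. *Apobec3* and *Trim25* overlapped the untreated libraries, while *Bst2*, *Trim21* and *Ifitm3* stayed above all of them. In all, 8 of the 10 genes were above every untreated library and 0 below, as were 39.4% and 29.9% of all genes tested.

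Against 4OHT day 5, long-term KO cells had lower *Apobec3* (log2 fold change -1.66, standard error 0.09, adjusted p = 4.44e-06), *Bst2* (-1.48, 0.06, adjusted p = 6.80e-07), *Trim25* (-1.41, 0.05, adjusted p = 3.97e-07) and *Trim21* (-1.32, 0.11, adjusted p = 3.80e-05). These 4 of the 10 genes were called lower and *Ifitm1* was called higher, where 5.72% of all genes tested were called lower, 6.59% higher and 12.3% in either direction. *Ifitm1* went on up, to 4.14, 3.89 and 3.89 FPKM, which was 1.60 above day 5 on the log2 scale (standard error 0.11, adjusted p = 1.09e-05). It was 2.71 above untreated (standard error 0.11, adjusted p = 7.71e-07), the 1 gene of the 10 called against untreated, where 7.79% of all genes tested were called higher and 5.92% lower. *Ifitm1* passed the filter only through groups other than untreated, so here too a lower call was hardly possible for it. Without the 2-fold limit 7 of the 10 genes were called higher in long-term KO than untreated, as were 34.3% of all genes tested, among them *Zc3hav1* (0.66) and *Ifitm3* (0.68). Both comparisons of day 5 and long-term KO with untreated cells share the untreated libraries.

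*Zc3hav1* was thus at 27.8, 27.4 and 27.4 FPKM in long-term KO, near its day 5 level, and *Samhd1* at 26.7, 27.6 and 28.6 FPKM. *Ifitm2* was at 195, 179 and 176 FPKM, above every library of both other groups. *Mov10* was at 16.9 and 17.9 FPKM in the long-term KO libraries where it had a row of its own and at 98.8 FPKM in the library whose row it shares with *Capza1*. With shared rows set to missing, *Mov10* in long-term KO was 0.71 above untreated on the log2 scale (standard error 0.08, adjusted p = 0.000260), and with the shared row it was 1.55 (adjusted p = 0.0666).

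The siRNA experiment asked how knockdown of Dnmt1, the maintenance DNA methyltransferase, acted alone and together with 4OHT. With siDnmt1 alone, 0 of the 10 genes were called, where 2.27% of all genes tested were called higher, 2.08% lower and 4.35% in either direction, and limma gave an unadjusted p under 0.05 for 2 of them, *Ifitm1* and *Ifitm2*, and for 25.1% of all genes tested. *Bst2* was nevertheless at 431 and 428 FPKM against 215 and 217 FPKM with siCtrl, and *Trim21* at 7.43 and 7.90 FPKM against 2.64 and 3.04 FPKM. *Trim25* was at 37.2 and 35.0 FPKM against 20.9 and 19.7 FPKM. In all, 8 of the 10 genes were above both siCtrl libraries, as were 27.1% of all genes tested, and *Samhd1* and *Ifitm2* were below both, as were 44.0%.

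The spread that the test uses is shared by all 8 libraries. The standard error of *Bst2* was 0.99 with the second 4OHT + siCtrl library in the fit and 0.13 without it. Without it, *Trim21* was called higher with siDnmt1 (1.40, standard error 0.29, adjusted p = 0.0328), where 4.1% of all genes tested were called higher and 3.48% lower, and *Bst2*, at 0.992 on the log2 scale, had an adjusted p of 0.0116 and stayed just under the 2-fold limit. The deposited intervals of *Trim21* in the siCtrl libraries are very wide, from 0 to 17.0 and from 0 to 15.4 FPKM. Epithelial keratin and adhesion genes moved with siDnmt1 as well: *Epcam*, *Cdh1*, *Krt8* and *Krt18* summed to 55.4 to 55.8 FPKM with siDnmt1 and 0.677 to 0.986 FPKM with siCtrl, and the same sum was 53.5 to 86.2 FPKM with 4OHT + siDnmt1 and 1.12 to 12.6 FPKM with 4OHT + siCtrl. The summed level of the 11 fibroblast markers was 5010.02 to 5110.4 FPKM with siCtrl, 4065 to 4238 FPKM with siDnmt1, 2328 to 3661 FPKM with 4OHT + siCtrl and 2391 to 2433 FPKM with 4OHT + siDnmt1. The part of these markers in the restriction gene values was not tested.

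**Figure D2:**
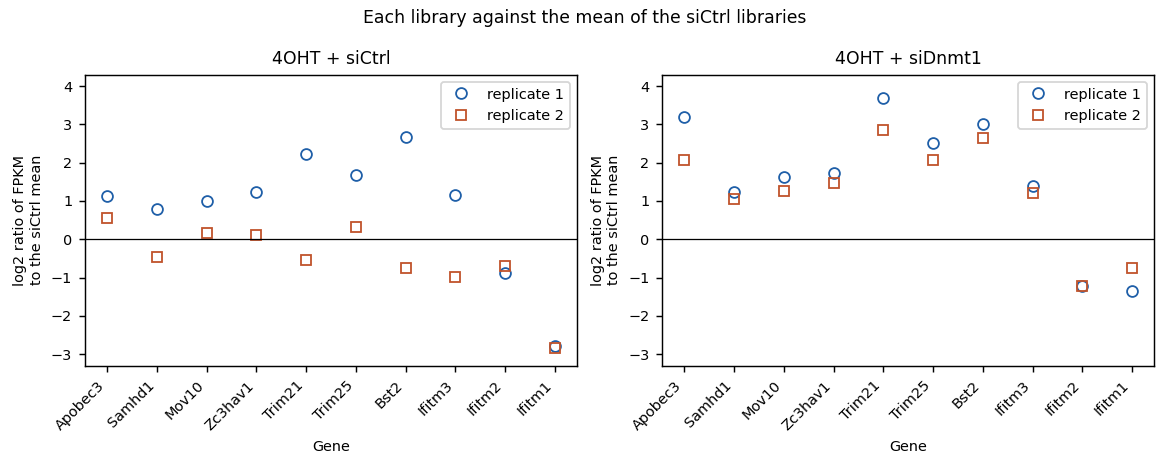
log2 ratio of FPKM to the mean of the siCtrl libraries (vertical) for the 10 genes (horizontal) in the 4OHT + siCtrl libraries (left) and the 4OHT + siDnmt1 libraries (right), circles for replicate 1 and squares for replicate 2. Under 4OHT + siCtrl the replicates differ most for Bst2 (2.67 and -0.74) and lie together for Ifitm1 (-2.78 and -2.83), and under 4OHT + siDnmt1 both lie on the same side of 0 for every gene.

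With 4OHT + siCtrl the libraries disagreed for most of the genes. *Bst2* was at 1373 FPKM in the first and 129 FPKM in the second, *Ifitm3* at 1299 and 292 FPKM, and *Trim21* at 13.3 and 1.95 FPKM, so that the first library was above both siCtrl libraries and the second below both. *Samhd1* (117 and 49.7 FPKM) had the same split. *Trim25* (65.4 and 25.2 FPKM), *Apobec3* (38.3 and 25.5 FPKM), *Mov10* (32.4 and 18.2 FPKM) and *Zc3hav1* (60.4 and 27.6 FPKM) were above both siCtrl libraries in each, although the second *Zc3hav1* value came from a row shared with *Zc3hav1l*. These 4 of the 10 genes were above both siCtrl libraries, as were 34.8% of all genes tested.

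*Ifitm1* and *Ifitm2* did not follow that split and were below both siCtrl libraries, as were 23.6% of all genes tested. *Ifitm1* was at 7.43 and 8.51 FPKM with siCtrl and at 1.16 and 1.12 FPKM with 4OHT + siCtrl, and *Ifitm2* went from 419.6 and 454 FPKM to 237 and 271 FPKM. *Ifitm1* was the 1 gene of the 10 called with both libraries (log2 fold change -2.70, standard error 0.22, adjusted p = 0.00304, limma), where 3.13% of all genes tested were called lower, 2.58% higher and 5.71% in either direction. *Ifitm2* passed the adjusted threshold at -0.78 (adjusted p = 0.00847) but not the fold limit. Leaving out the second library leaves 1 in its group, so only effect sizes are given, on the log2 scale. They were 2.67 for *Bst2*, 2.196 for *Trim21*, 1.68 for *Trim25*, 1.24 for *Zc3hav1* and 1.16 for *Ifitm3*. *Apobec3* was at 1.17, *Mov10* at 0.997 and *Samhd1* at 0.79, and *Ifitm2* (-0.88) and *Ifitm1* (-2.68) were lower.

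Together, 4OHT and siDnmt1 gave the highest group means of the siRNA experiment for 8 of the 10 genes. *Bst2* was at 1739 and 1339 FPKM, *Ifitm3* at 1515 and 1330.3 FPKM and *Apobec3* at 157 and 72.2 FPKM. *Trim25* was at 116 and 85.6 FPKM, *Trim21* at 36.9 and 20.4 FPKM and *Zc3hav1* at 84.6 and 70.4 FPKM. *Samhd1* (159 and 140.4 FPKM) and *Mov10* (50.5 and 38.6 FPKM) also lay above every siCtrl and siDnmt1 library, while *Ifitm2* (188 and 187 FPKM) and *Ifitm1* (3.14 and 4.73 FPKM) lay below them all. Of all genes tested, 42.6% lay above and 32.9% below every siCtrl library, and 47.5% above and 23.5% below every siDnmt1 library.

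Against siCtrl, 5 of the 10 genes were called higher and 2 lower, where 8.94% of all genes tested were called higher and 6.72% lower. Those higher were *Trim21* (log2 fold change 3.23, standard error 0.83, adjusted p = 0.0329), *Apobec3* (2.65, 0.42, adjusted p = 0.00778), *Trim25* (2.29, 0.42, adjusted p = 0.0127), *Zc3hav1* (1.59, 0.34, adjusted p = 0.0200) and *Mov10* (1.44, 0.28, adjusted p = 0.0150). Those lower were *Ifitm2* (-1.22, 0.09, adjusted p = 0.000952) and *Ifitm1* (-1.03, 0.22, adjusted p = 0.0201). *Bst2* had a log2 fold change of 2.82 with an adjusted p of 0.0771. When the second 4OHT + siCtrl library was left out of the fit, all 10 genes were called, 8 higher and 2 lower, *Bst2* with an adjusted p of 0.000316, where 10.3% and 7.38% of all genes tested were called higher and lower. Leaving out a siCtrl or 4OHT + siDnmt1 library leaves 1 in its group, so only effect sizes are given. Most of the calls against siCtrl were lost in some of these fits. Over the 5 fits that left out 1 library, *Trim21* ran from 2.802 to 3.658 and *Apobec3* from 2.09 to 3.21. *Trim25* ran from 2.071 to 2.505, *Zc3hav1* from 1.46 to 1.72 and *Mov10* from 1.25 to 1.63. *Ifitm2* ran from -1.27 to -1.16 and *Ifitm1* from -1.31 to -0.737.

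Against siDnmt1 alone, the joint treatment gave higher *Apobec3* (1.86, standard error 0.42, adjusted p = 0.0444) and *Mov10* (1.20, 0.28, adjusted p = 0.0491) and lower *Ifitm1* (-1.78, 0.22, adjusted p = 0.0139), where 3.06% of all genes tested were called higher, 2.06% lower and 5.12% in either direction. The median of all genes tested was itself shifted by 0.15 in this comparison. After median-ratio scaling only *Ifitm1* was called, where 1.92% of all genes tested were called higher and 2.59% lower. Without the second 4OHT + siCtrl library, 8 genes were called higher and *Ifitm1* lower, where 6.28% of all genes tested were called higher and 3.1% lower. Against 4OHT + siCtrl, *Ifitm1* alone was called, at 1.67 (standard error 0.22, adjusted p = 0.0251), where 1.3% of all genes tested were called higher and 0.776% lower. That comparison turns on which 4OHT + siCtrl library is kept: 9 genes were called higher without the first, where 5.79% of all genes tested were called higher and 2.96% lower, and 1, *Ifitm1*, without the second, where 2.32% and 1.16% were.

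The interaction term, which asks whether 4OHT and siDnmt1 together differed from the sum of both on the log2 scale, was called for 0 of the 10 genes, where 0.245% of all genes tested were called higher and 0.143% lower (0.388% in either direction), and limma gave an unadjusted p under 0.05 for *Ifitm1* alone of the 10 and for 9.66% of all genes tested. Leaving out either 4OHT + siCtrl library leaves 1 in its group, so no calls are given for those fits. The estimates of *Bst2*, *Trim21*, *Trim25*, *Ifitm3* and *Zc3hav1* were above 0 with both libraries and below 0 without the second.

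The inhibitor experiment held a further 4OHT treatment, harvested at day 6. *Bst2* was at 61.9 and 69.3 FPKM in Ctrl cells and at 755 and 1349 FPKM at 4OHT day 6, and *Ifitm3* at 332 and 323 FPKM and then 891 and 1322 FPKM. *Trim25* went from 14.0 and 14.7 FPKM to 36.1 and 65.7 FPKM, and *Zc3hav1* from 16.4 and 17.9 FPKM to 37.8 and 54.7 FPKM. *Trim21* was at 1.46 and 1.55 FPKM and then at 4.75 and 9.24 FPKM. The second 4OHT day 6 library was higher than the first for these genes, and both were above every Ctrl library. In all, 8 of the 10 genes were above and 2, *Ifitm1* and *Ifitm2*, below both Ctrl libraries, as were 34.6% and 33.8% of all genes tested. The summed level of the 11 fibroblast markers was 2878 to 2989.7 FPKM at 4OHT day 6 and 4002 to 4244 FPKM in Ctrl cells, and its part was not tested.

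*Bst2* rose by 3.94 on the log2 scale (standard error 0.27, adjusted p = 0.000238, limma), *Trim21* by 2.07 (0.31, adjusted p = 0.00517) and *Trim25* by 1.75 (0.30, adjusted p = 0.00750). *Ifitm3* rose by 1.73 (0.28, adjusted p = 0.00668) and *Zc3hav1* by 1.40 (0.19, adjusted p = 0.00370). *Ifitm1* fell, from 6.50 and 5.21 FPKM to 1.82 and 2.09 FPKM (-1.53, 0.40, adjusted p = 0.0341), a call lost in each of the 4 fits that left out a library of this comparison. In all, 5 of the 10 genes were called higher and 1 lower, where 5.15% of all genes tested were called higher and 5.87% lower. *Samhd1* was at 69.7 and 103 FPKM against 49.3 and 50.3 FPKM (0.76, adjusted p = 0.0238), *Mov10* at 21.0 and 28.7 FPKM against 15.6 and 16.9 FPKM, and *Apobec3* at 16.4 and 32.0 FPKM against 15.9 and 15.2 FPKM. *Apobec3*, called at day 5 in the total RNA experiment, had a log2 fold change of 0.56 here (adjusted p = 0.327), and the difference between both experiments was not tested.

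**Figure D3:**
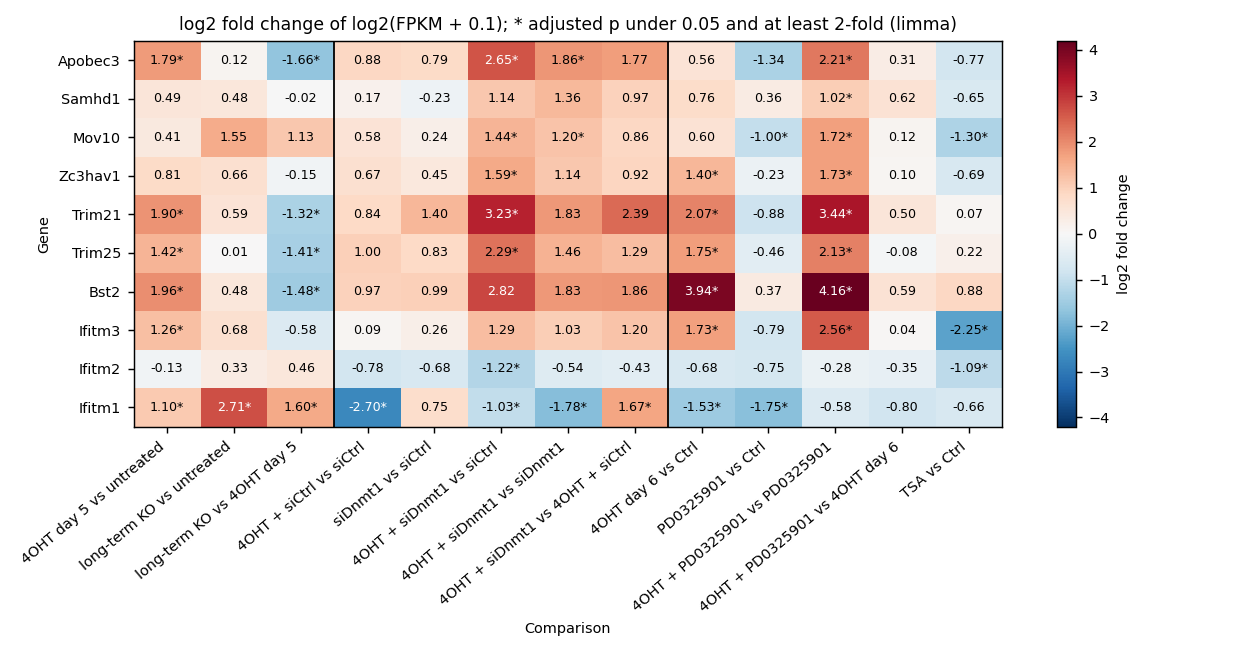
log2 fold change from limma for the 10 genes (vertical) in 13 comparisons (horizontal), red for higher and blue for lower, with black lines between the experiments; an asterisk marks an adjusted p under 0.05 with at least a 2-fold change. Bst2 has the largest value (4.16, 4OHT + PD0325901 against PD0325901), and Ifitm1 is higher at day 5 and in long-term KO and lower after 4OHT in the siRNA and inhibitor experiments.

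PD0325901 alone gave lower values for most of the genes. *Mov10* was at 7.41 and 8.75 FPKM (-1.001, standard error 0.18, adjusted p = 0.0157) and *Ifitm1* at 1.24 and 2.21 FPKM (-1.75, 0.40, adjusted p = 0.0328), the 2 of the 10 genes called lower, where 3.88% of all genes tested were called lower, 2.81% higher and 6.69% in either direction. The fold of *Mov10* lay just past the limit, and 0 of the 10 genes were called after quantile normalization, or without either Ctrl library or the first PD0325901 library. *Apobec3* was at 4.65 and 7.89 FPKM, *Ifitm3* at 172 and 209.6 FPKM and *Trim21* at 0.701 and 0.852 FPKM, each below both Ctrl libraries. *Samhd1* (68.9 and 59.3 FPKM) and *Bst2* (86.0 and 83.9 FPKM) were above both, as were 25.6% of all genes tested, and the other 8 were below both, as were 38.2%.

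With 4OHT and PD0325901 together, 8 of the 10 genes were called higher than with PD0325901 alone and 0 lower, where 3.5% of all genes tested were called higher and 1.23% lower. *Bst2* was at 1612 and 1433 FPKM (4.16, standard error 0.27, adjusted p = 0.000303), *Trim21* at 9.25 and 9.58 FPKM (3.44, 0.31, adjusted p = 0.00135) and *Ifitm3* at 1158 and 1083 FPKM (2.56, 0.28, adjusted p = 0.00297). *Apobec3* was at 23.6 and 34.3 FPKM (2.21, 0.38, adjusted p = 0.0153) and *Trim25* at 37.8 and 56.1 FPKM (2.13, 0.30, adjusted p = 0.00789). *Zc3hav1* (43.0 and 55.2 FPKM) rose by 1.73 (0.19, adjusted p = 0.00316), *Mov10* (24.96 and 28.6 FPKM) by 1.72 (0.18, adjusted p = 0.00268) and *Samhd1* (121 and 139 FPKM) by 1.02 (0.18, adjusted p = 0.0179). *Ifitm2* (258 and 204 FPKM) and *Ifitm1* (1.21 and 0.954 FPKM) were not called.

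Against 4OHT day 6 0 of the 10 genes were called with the joint treatment, where 2.15% of all genes tested were called higher, 1.36% lower and 3.51% in either direction, and limma gave an unadjusted p under 0.05 for *Samhd1* and *Ifitm2* and for 21.6% of all genes tested. The interaction of 4OHT and PD0325901 was called for 0 of the 10 genes, where 0.337% of all genes tested were called higher and 0.128% lower (0.465% in either direction). Its unadjusted p was under 0.05 for 15% of all genes tested and for *Mov10*, *Trim21* and *Apobec3*, whose adjusted p-values were 0.123, 0.221 and 0.222.

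With TSA, 3 of the 10 genes were called lower and 0 higher, where 12.4% of all genes tested were called lower, 18.7% higher and 31.1% in either direction. *Ifitm3* was at 91.1 and 52.1 FPKM (-2.25, standard error 0.28, adjusted p = 0.000521), *Mov10* at 7.08 and 5.98 FPKM (-1.30, 0.18, adjusted p = 0.000871) and *Ifitm2* at 219 and 221 FPKM (-1.09, 0.14, adjusted p = 0.000633), all far below the Ctrl libraries. *Bst2* was at 142 and 103 FPKM, above both Ctrl libraries, 0.88 higher on the log2 scale (adjusted p = 0.0263) and under the fold limit. *Samhd1* (-0.65, adjusted p = 0.0182) and *Zc3hav1* (-0.69, adjusted p = 0.0193) also passed the adjusted threshold but not the fold limit. In all, 6 of the 10 genes were below both Ctrl libraries and 2 above, as were 38.5% and 46.4% of all genes tested. Beside these values, *Epcam*, *Cdh1*, *Krt8* and *Krt18* summed to 31.3 to 32.4 FPKM with TSA and 1.28 to 1.39 FPKM in Ctrl cells. The summed leukocyte markers were at 62.2 to 68.2 FPKM with TSA and 5.67 to 6.12 FPKM in Ctrl cells, of which *Cd68* alone gave 60.5 to 66.9 FPKM and 4.27 to 4.90 FPKM, and the other 10 were under 1 FPKM in both TSA libraries. The part of either list was not tested.

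**Figure D4:**
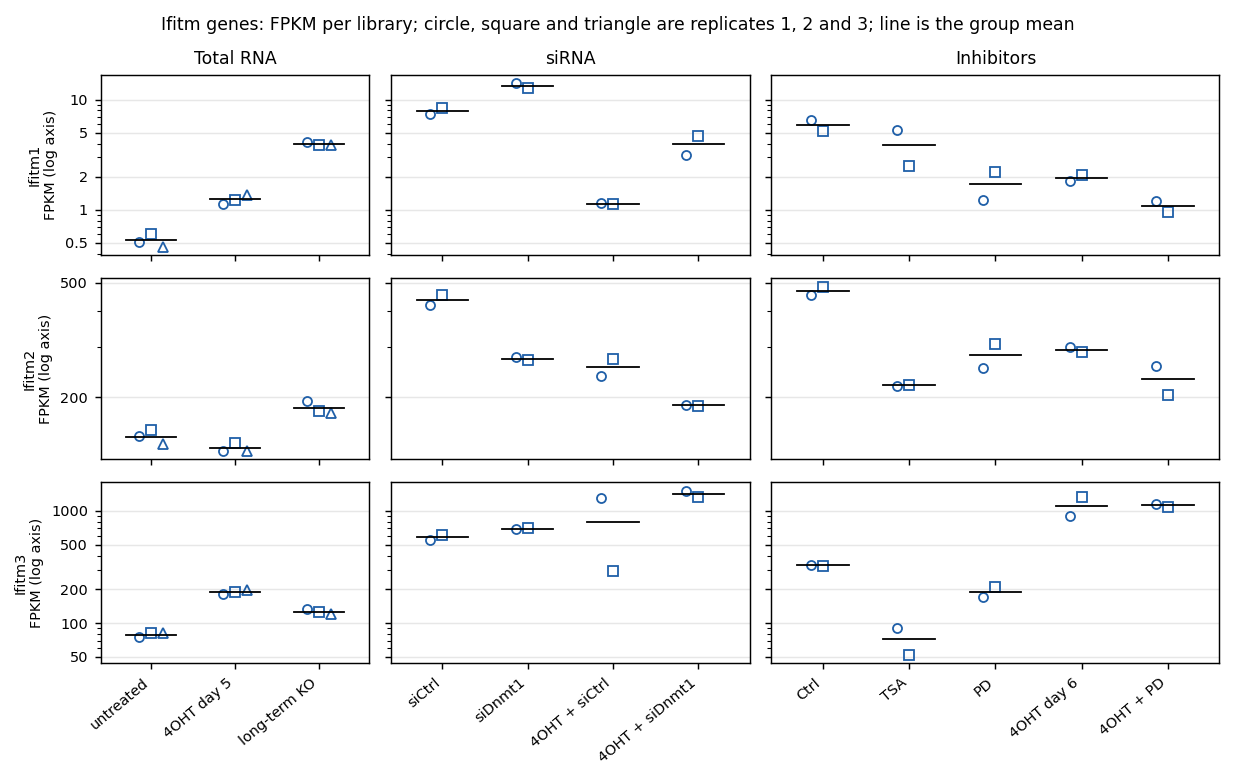
FPKM (vertical, log axis) of Ifitm1, Ifitm2 and Ifitm3 in each library, by group (horizontal) in the 3 experiments; open symbols are replicates and lines are group means. Ifitm3 is higher at 4OHT day 5 and day 6 than in the controls, Ifitm2 is lower at day 6, and Ifitm1 is higher at day 5 and lower at day 6.

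The 3 *Ifitm* genes, neighbours within 1 cluster on chromosome 7, did not move as a unit. *Ifitm3* was called higher at 4OHT day 5 and day 6, and with PD0325901 its level after 4OHT stood at 1083 FPKM or more. *Ifitm2* was below both controls in each 4OHT comparison of the siRNA and inhibitor experiments with siCtrl or Ctrl, and overlapped the untreated libraries at day 5. *Ifitm1* was called higher at day 5 and in long-term KO and called lower with 4OHT in the siRNA and inhibitor experiments, at levels where the deposited intervals imply 3.61 to 108 fragments per library. Coding sequences were 84.0% identical between *Ifitm2* and *Ifitm3*, 85.6% between *Ifitm1* and *Ifitm3* and 84.7% between *Ifitm1* and *Ifitm2*, and the aligner kept 1 position for a read with several hits. Of the 51-base windows of each transcript, the read length of the siRNA experiment, 2.04% of *Ifitm1*, 3.16% of *Ifitm2* and 5.25% of *Ifitm3* also occur in another of the 3, so a small share of their reads could have been placed on the wrong copy.

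A list of 56 other genes known to act against retroviruses or retroelements was read in the same comparisons. It was chosen with earlier results of these data known, so its shares are a description and not a test. At 4OHT day 5, 34 of the 56 were tested and 13 were called higher and 1 lower, with a median log2 fold change of 0.65, where 2.19% of all genes tested were called higher and 1.26% lower. The highest were *Rsad2*, which encodes viperin (5.48, standard error 0.16, adjusted p = 6.70e-07), and *Isg15*, a ubiquitin-like modifier (5.01, 0.19, adjusted p = 2.65e-06). The lowest was *Ch25h*, a cholesterol hydroxylase (-1.12, 0.14, adjusted p = 0.00106), the single gene of the list called lower, and the next lowest called was *Parp12* (1.61, 0.05, adjusted p = 1.03e-06).

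At 4OHT day 6, 24 of 42 tested were called higher and 1 lower, against 5.15% and 5.87% of all genes tested. *Mx2*, an IFN-induced GTPase (7.83, standard error 0.72, adjusted p = 0.000852), and *Rsad2* (7.01, 0.71, adjusted p = 0.00128) were highest. *Ch25h* (-2.82, 0.58, adjusted p = 0.0149) was lowest, followed by the exonuclease gene *Trex1* (1.23, 0.12, adjusted p = 0.000987). With 4OHT + siCtrl, 1 of 44 tested was called higher, *Parp10* (1.78, 0.28, adjusted p = 0.0176), and 1 lower, *Ch25h* (-2.74, 0.53, adjusted p = 0.0292), against 2.58% and 3.13% of all genes tested. *Ch25h* was thus called lower after 4OHT in all 3 experiments.

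In the other comparisons of this list, 11 of 34 were called higher in long-term KO than untreated and 0 lower, where 7.79% and 5.92% of all genes tested were. Against 4OHT day 5, 2 were called higher in long-term KO and 8 lower, where 6.59% and 5.72% of all genes were. With 4OHT + siDnmt1 against siCtrl, 24 of 44 were called higher and 2 lower (8.94% and 6.72% of all genes), and with siDnmt1 alone 1 and 1 (2.27% and 2.08%). With 4OHT + PD0325901 against PD0325901, 25 of 42 were called higher and 0 lower (3.5% and 1.23% of all genes), and with PD0325901 alone 0 and 1 (2.81% and 3.88%). With TSA, 5 of 42 were called higher and 4 lower (18.7% and 12.4% of all genes), a share of the list under that of all genes in both directions.

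Genes of the IFN pathway that drives many restriction factors were read beside them, as a list of 8. At day 5 and in long-term KO, 7 were tested and 4 were called higher than untreated in each. Of all genes tested, 2.19% and 7.79% were called higher. Against day 5, 4 of the 7 were called lower in long-term KO and 1 higher, where 5.72% and 6.59% of all genes tested were. At day 6, 5 of the 8 were called higher, where 5.15% of all genes tested were. *Irf7* rose by 4.96 at day 5 (adjusted p = 2.52e-07) and by 6.79 at day 6 (adjusted p = 0.000198), and *Stat2* and *Irf9* were called higher in both. *Ifnb1*, the gene of IFN-beta, was listed at 0 in every untreated, siCtrl, Ctrl, TSA, PD0325901 and long-term KO library and reached 8.54 and 26.2 FPKM with 4OHT + siDnmt1. In the 4OHT + siCtrl libraries *Ifnb1* was at 4.08 FPKM in the first and 0.727 FPKM in the second. The receptor subunit genes *Ifnar1* and *Ifnar2* were called neither at 4OHT day 5 nor at 4OHT day 6 against their controls.

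Over the 27 libraries, each set against the mean of its experiment's controls, the genes whose log2 values followed each member most closely were found among 10329 genes, as a description with no test, since libraries share controls and treatments. *Bst2* was closest to *Mx2* (r = 0.98) and *Dhx58* (0.97), *Zc3hav1* to *Dtx3l* (0.99) and *Samd9l* (0.98), *Trim21* to *Trim14* (0.97) and *Gbp2* (0.97), and *Trim25* to *Trim21* (0.96) and *Helz2* (0.95). *Ifitm3* was closest to *Parp9* (0.96) and *Lgals3bp* (0.94), *Apobec3* to *Psme1* (0.93) and *Irf1* (0.92), *Samhd1* to *Tmem106a* (0.93) and *Zfp24* (0.90), and *Mov10* to *Dnaja3* (0.89) and *Uba7* (0.88). The *Mov10* values include the 98.8 FPKM of the long-term KO library whose row is shared with *Capza1*. *Ifitm2* was closest to *Zfp395* (0.95) and *Man2a2* (0.93), and *Ifitm1* to *Pygb* (0.91) and *Ropn1l* (0.90). Among the 10 themselves, *Trim21* and *Trim25* were the closest pair, *Ifitm1* and *Ifitm2* had r = 0.75, and both of these had negative values with *Bst2* (-0.39 and -0.55).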

How the data were processed

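Alignment to mm9 was done by the authors with TopHat2 2.0.12, with 1 position kept per read. The authors then assembled each library on RefSeq genes with Cufflinks, and deposited FPKM with confidence limits. The deposited tables of group comparisons (authors' FPKM, fold changes, p-values) were not used. Rows without names were matched by position, covering at least 95% of a gene, which gave the same name for at least 99.9% of rows in named libraries. A gene without a row of its own in a library took the value of the row it shares. Each experiment was fitted with limma 3.58.1 (R 4.3.3) on log2(FPKM + 0.1) with all its groups, trended variances and Benjamini-Hochberg adjustment, two-sided, for genes that reached 1 FPKM in at least the number of libraries of the smallest group. A call needed an adjusted p under 0.05 and a 2-fold change. On this scale the change of low genes is understated. Genes named are the 10 members and the 2 genes most like each member. From the list of 56, the 2 highest and 2 lowest called are named in the 3 comparisons of 4OHT with its own control. The IFN pathway and marker genes named were chosen after their values were seen. Members and lists were chosen with earlier results of these data known. Implied fragments treat each confidence interval as counting error and cover that error only. The fit was tested on simulated data. Alternatives were other pseudocounts, filters, scalings, fold limits, groups in the fit, a replicate block, shared rows set to missing, and libraries left out. Sequences were read with Python 3.11.15 and aligned with Biopython 1.88, and plots used matplotlib 3.10.9.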

Additional observations from a re-analysis of the deposited data

Results flagged for a closer look

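*Ifitm1* moved in opposite directions after 4OHT in different experiments. It was above every control at 4OHT day 5 (log2 fold change 1.10, 3 of 3 libraries) and below every control with 4OHT + siCtrl (-2.70, 2 of 2 libraries) and at 4OHT day 6 (-1.53, 2 of 2 libraries). The difference between the experiments was not tested. Harvest day, RNA selection and read type differ between the experiments along with it and cannot be told apart. The control level of *Ifitm1* was 0.528 ± 0.0760 FPKM (SD, n = 3) untreated, 7.97 ± 0.763 FPKM in siCtrl and 5.86 ± 0.917 FPKM in Ctrl cells (SD, n = 2 each), and after 4OHT it was 1.24 ± 0.112, 1.14 ± 0.0260 and 1.96 ± 0.192 FPKM.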

How the results depend on the processing

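Under the alternatives run, 64 of 643 values of genes called as reported lost the call, but none reversed its direction. Of 1648 values of genes not called, 29 did, among them *Bst2* (-0.74), *Trim21* (-0.52), *Samhd1* (-0.45) and *Ifitm3* (-0.99) with 4OHT + siCtrl when its first library was left out. Of the counts of genes called, 196 stayed within 1.5 times and 34 moved. Shares in brackets are those of all genes tested called higher and lower in the same setting. With a filter of 5 FPKM, 0 genes were called in long-term KO against untreated (6.11% and 5.29%) and 3 against day 5 (5.51% and 4.68%). Both counts fell because *Trim21* and *Ifitm1* were then not tested in that experiment. With no fold limit the counts were 7 in long-term KO against untreated (34.3% and 26.5%) and 8 against day 5 (32.3% and 27.3%). They were 1 for siDnmt1 (2.8% and 3.84%), 2 for 4OHT + siCtrl (6.25% and 5.59%) and 6 for TSA (30% and 23.7%). For 4OHT + siDnmt1 against siDnmt1, 1 gene was called with no filter (2.41% and 1.66%) and 1 with median-ratio scaling (1.92% and 2.59%). For PD0325901, 1 was called with no filter (1.91% and 2.6%) and 1 with median-ratio scaling (3.18% and 3.49%). PD0325901 had 1 with a pseudocount of 1 FPKM (2.04% and 2.62%) and 0 after quantile normalization (3.04% and 2.68%). With the compared groups alone in the fit, 1 was called for siDnmt1 (4.49% and 4.2%). For 4OHT + siDnmt1, 0 were called against 4OHT + siCtrl (0.296% and 0.131%) and 8 against siDnmt1 (5.34% and 2.49%). Chosen after seeing the data, shared rows set to missing gave 2 for 4OHT + siCtrl (2.63% and 3.31%). Leaving out the second 4OHT + siCtrl library, also chosen after seeing the data, moved the counts and effect sizes of the siRNA experiment as given above.

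Leaving out 1 library at a time, the counts ranged from 1 to 2 for long-term KO against untreated, 0 to 1 for siDnmt1, 1 to 6 for 4OHT + siCtrl, and, for 4OHT + siDnmt1, 1 to 10 against siCtrl, 1 to 9 against 4OHT + siCtrl and 0 to 9 against siDnmt1. They ranged from 0 to 4 for the interaction with siDnmt1 and 0 to 2 for PD0325901. In the siRNA and inhibitor experiments most of these fits leave 1 library in a compared group. The ranges there show only how far the counts depend on single libraries. Where the cause is not named above, it was not tested. With the replicate block, 2 genes were called for 4OHT + siDnmt1 against siDnmt1, where 2.09% of all genes tested were called higher and 1.43% lower. For PD0325901, 3 were called, where 2.99% and 4.35% were, and the other counts were as reported. Correlations of the deviations of same-numbered libraries ran from -0.05 to 0.24. Every pair among PD0325901, 4OHT day 6 and 4OHT + PD0325901 was above 0.1 (0.14 to 0.24), no pair with Ctrl or TSA was, and 1 of 9 in the total RNA experiment and 0 of 12 in the siRNA experiment were. In groups of 2 libraries the 2 pairs of a comparison give the same correlation by construction, so they are not separate values. With 2 such pairs in each of those comparisons and no meaning given to the numbers in the labels, the numbers were not taken to pair libraries. In the sample order PD0325901, 4OHT day 6 and 4OHT + PD0325901 run by replicate number, after Ctrl and TSA. Whether they were handled apart from Ctrl was not tested, and such a difference could not be told apart from treatment. With 2 libraries a group, and *Ifitm1* at few fragments, small changes could not be detected.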
